A study of Mus musculus with 10 samples.

Results

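The translation initiation factors (eIFs) and elongation factors (eEFs) are described here in gastrocnemius muscle of diet-induced obese mice treated with an antisense oligonucleotide (ASO) against miR-22. The members are the genes whose symbol starts with Eif or Eef followed by a digit, which gave 87 of the 21160 genes in the count table. A further 15 annotated genes fit the same symbol rule, most of them pseudogenes, and are not analysed here. Of the 87 members, 64 had at least 1 count in the 10 libraries and 52 passed the filter on low counts and were tested. The 23 members without a count include 16 of the numbered Eif1ad genes. They also include genes such as Eif4enif1 and Eef1akmt1, whose counted 3′ stretch is shared almost in full with other stretches, so these zeros say nothing of whether the gene is expressed.

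Male wild type C57BL/6J mice received a high-fat diet from 9 weeks of age, for 9 weeks before treatment, per the labels until they weighed more than 40 g. Per the study, both groups stayed on this diet during the treatment. The study's record of body weights nevertheless lists some CTRL mice, and no ASO mice, below that weight on the first day of treatment. For 14 weeks the mice were then injected under the skin every week, either with 10 mg/kg of the ASO, which the labels name RES-010 and LNA (ASO, n = 5), or with 0.9% saline (CTRL, n = 5), and the series gives their age at the end as 30 weeks, which is less than these periods add up to. Both groups are labelled as obese from the diet, and the control was saline rather than an oligonucleotide of another sequence. The comparison asks which transcripts of the muscle change when miR-22 is inhibited during obesity.

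Initiation factors bring the small ribosomal subunit and the initiator tRNA to the start codon of an mRNA. Elongation factors then deliver each aminoacyl-tRNA to the ribosome and move the ribosome along the codons. In muscle, protein synthesis is held in check mainly at the cap-binding step, through repressors of eIF4E that mTORC1 inactivates, at eIF2, through kinases that respond to stress, and at eEF2, through its own kinase. Adult muscle fibers use the eEF1A isoform encoded by Eef1a2, whereas most other cells use Eef1a1.

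Total counts per library lay between 1606909 and 2116720 in CTRL and between 2239186 and 2632560 in ASO, so the depths of the groups did not overlap. Of the 8 muscle fiber markers, Mylpf, Tnnt3 and Pygm were at 0 in all libraries. These zeros are of the counted 3′ stretches and do not show that the genes were silent, and their reason was not tested. The summed level of the other 5 lay between 45256 and 86503 CPM (counts scaled to the size of the library) in CTRL and between 92107 and 147611 CPM in ASO, without overlap. CTRL library 3 stood apart, with 13740 CPM of adipocyte markers against 720 to 3758 CPM in the other 9 libraries, and with 1609 CPM of macrophage markers against 74 to 587 CPM. ASO library 4 also stood apart, with 7766 CPM of slow fiber markers against 28.9 to 2550 CPM in the others and 607 CPM of Schwann cell markers against 42.5 to 165 CPM, and its fibroblast markers, at 539.7 CPM, were the highest of the ASO libraries. In bulk muscle, fewer cells of a type and less RNA per cell cannot be told apart.

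Members accounted for 1.155% to 1.205% of all counts in CTRL and for 1.219% to 1.37% in ASO, without overlap. Of the 52 members tested, 18 were higher and 6 were lower in ASO than in CTRL at an adjusted p under 0.05 (edgeR's quasi-likelihood test, Benjamini-Hochberg over all genes). Among all 7819 genes tested, 11.7% were higher and 17.5% were lower. The median log2 fold change was 0.31 over the 52 members and -0.03 over all genes tested. In 15 members every ASO library was above every CTRL library, and in 5 every ASO library was below, against 7.98% and 13.4% of all genes tested. The split of members into higher and lower depended on scaling: with plain total counts in place of TMM (trimmed mean scaling), which moved the median of all genes by -0.18 on the log2 scale, 11 members were higher and 9 lower, against 6.75% and 23.3% of all genes, and all of these 11 higher members were also higher with TMM. Of the 18 rises, 5 were in the small subunit scaffold eIF3 and 4 in elongation genes, and the 6 falls were those of Eif5, Eif2b1, Eif2b4, Eif4e, Eif4a2 and Eif6.

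**Figure D1:**
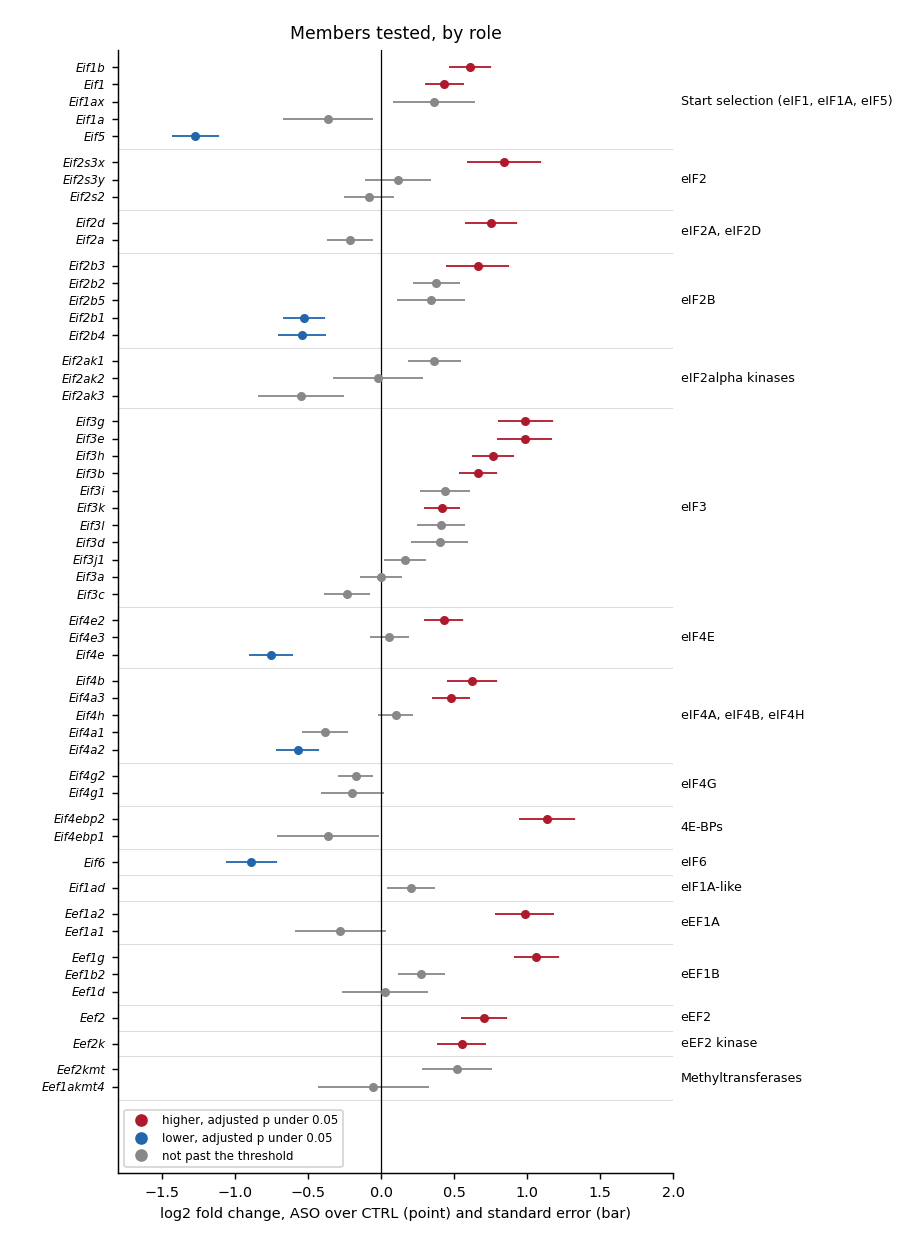
Log2 fold change of ASO over CTRL for each of the 52 members tested, grouped by role, with the standard error as a bar. Red points passed the threshold upwards and blue points downwards, and eIF3 has 5 red points and no blue one. Of all genes tested, 11.7% passed upwards and 17.5% downwards.

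The elongation factors moved in a single direction where they passed the test. Of the 9 tested members with symbols starting with Eef, 4 were higher and none lower, against 11.7% and 17.5% of all genes tested. Their median log2 fold change was 0.52. Eef1g, a subunit of the complex that recharges eEF1A with GTP, had 317, 271, 432, 348 and 356 CPM in ASO libraries 1 to 5 and 184, 167, 132, 179 and 163 CPM in CTRL libraries 1 to 5. Every ASO library was above every CTRL library, and the log2 fold change was 1.06 ± 0.15 (SE; edgeR, Benjamini-Hochberg adjusted p = 0.000534). Eef2, the translocase that moves the ribosome by a codon, had 2062, 2233, 2312, 2556 and 3397 CPM in ASO and 1694, 1559, 1409, 1531 and 1523 CPM in CTRL. The groups did not overlap, and its log2 fold change was 0.70 ± 0.16 (SE; edgeR, Benjamini-Hochberg adjusted p = 0.00593). Eef2 has 1 segment, so a fit on the most distal segment of each gene holds the same counts for it. Scaled over those segments alone, that fit put Eef2 at 0.45, not called, whereas in a fit over all segments it was higher (0.74). Eef2k, the kinase that phosphorylates and inhibits eEF2, also rose, by 0.55 ± 0.17 on the log2 scale (edgeR, Benjamini-Hochberg adjusted p = 0.0261), although ASO library 4, at 89.3 CPM, lay within the CTRL range of 73.6 to 106 CPM. Its call was lost without ASO library 1, ASO library 5 or CTRL library 1, with log2 fold changes of 0.48 to 0.54, and with total counts (0.36). The other subunits of the exchange complex, Eef1b2 at 0.27 ± 0.16 and Eef1d at 0.02 ± 0.30, did not pass.

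Of the eEF1A isoforms, only Eef1a2 passed the test. It had 1197, 1103, 1642, 1058 and 1673 CPM in ASO and 803, 833, 457, 628 and 658 CPM in CTRL, with a log2 fold change of 0.98 ± 0.20 (SE; edgeR, Benjamini-Hochberg adjusted p = 0.00357). Every ASO library was above every CTRL library. Eef1a1 had 331, 361, 480.4, 612 and 218 CPM in ASO and 343, 387, 898, 417 and 386 CPM in CTRL, where the highest value was in CTRL library 3, the library with the high adipocyte markers. The groups overlapped, at -0.28 ± 0.31 (edgeR, Benjamini-Hochberg adjusted p = 0.524), and without CTRL library 3 the value was 0.06. Eef1a1 has processed pseudogenes in the annotation, and its counts are uncertain where reads match several copies. The same limit holds for Eef2, Eif1 and Eif2s3x, of which the annotation also holds processed pseudogenes.

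The ratio of Eef1a2 to Eef1a1 counts within a library does not depend on scaling. Its log2 value was 1.86, 1.61, 1.77, 0.79 and 2.94 in ASO libraries 1 to 5 and 1.23, 1.10, -0.97, 0.59 and 0.77 in CTRL libraries 1 to 5. ASO library 4, the one with the high slow fiber and Schwann cell markers, fell within the CTRL range, and CTRL library 3 was the lowest of all. The means were 1.79 ± 0.77 and 0.54 ± 0.89 (SD, n = 5 each), a difference of 1.25 (two-sided exact permutation test over all labellings, p = 0.0238). Without CTRL library 3 the difference was 0.87 (exact permutation p = 0.0556), and leaving out ASO library 1, 3 or 5 also brought p above the threshold, with differences of 1.24, 1.26 and 0.96. Without ASO library 4 the difference was 1.501 (exact permutation p = 0.0159). The part of adipocyte, slow fiber and muscle fiber content in this ratio was not tested.

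**Figure D2:**
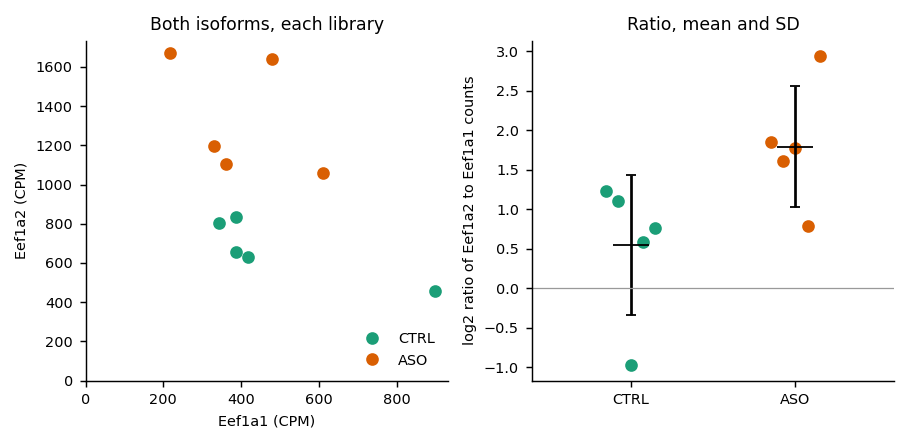
Left, Eef1a1 (x axis) against Eef1a2 (y axis) in CPM, 1 point per library. Right, the log2 ratio of their counts in each library with mean and SD. All 5 ASO libraries lie above the CTRL libraries in Eef1a2, and the CTRL library at 898 CPM of Eef1a1 has the lowest ratio.

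Levels were compared per length of the counted segment that no other segment shares. The members with the highest levels in CTRL were Eif1 at 3923 ± 378, Eef1a2 at 3749 ± 839 and Eef2 at 3709 ± 246 CPM per kb (SD, n = 5), which did not differ beyond their spread. Eif1 has 347 such bases in a segment of 500, so its place in this order depends on that choice. Eif4g2 followed at 2091 ± 134 CPM per kb, and then Eef1a1 at 1707 ± 813 CPM per kb, within its own spread of Eif4g2. In ASO the level of Eef1a2 was 7410 ± 1665 CPM per kb, that of Eef2 was 6039 ± 1264 and that of Eif1 was 4322 ± 488. These levels rest on 1 short segment for each gene, between 180 and 500 bp, and on the shorter ones read pairs that reach in from outside weigh more.

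eIF3 is the largest initiation factor, a scaffold on the small ribosomal subunit that holds the other factors together. Of its 14 members in the table, 11 were tested, 5 were higher and none was lower, against 11.7% and 17.5% of all genes tested. The median log2 fold change was 0.41, against -0.03 over all genes tested and 0.19 over all tested genes with 1 counted segment. Eif3h had 230.3, 214, 314, 220.4 and 289.5 CPM in ASO and 169, 156, 148, 142 and 131 CPM in CTRL, without overlap (0.77 ± 0.15; edgeR, Benjamini-Hochberg adjusted p = 0.00253). Eif3e had 198, 193, 312, 195 and 231 CPM in ASO and 139, 143, 105, 86.7 and 97.7 CPM in CTRL (0.98 ± 0.19; edgeR, Benjamini-Hochberg adjusted p = 0.0026). Every ASO library was again above every CTRL library, and the annotation holds processed pseudogenes of Eif3e, so its counts are uncertain in part. Eif3g had 27.5, 27.6, 46.5, 31.7 and 30.6 CPM in ASO and 14.6, 17.7, 15.8, 19.5 and 15.2 CPM in CTRL (0.99 ± 0.19; edgeR, Benjamini-Hochberg adjusted p = 0.00264). Eif3b, a subunit that carries an RNA recognition motif, had 251, 272, 282, 271 and 309 CPM in ASO and 202, 188, 179, 149 and 157 CPM in CTRL (0.66 ± 0.13; edgeR, Benjamini-Hochberg adjusted p = 0.00274). The groups did not overlap for Eif3g or Eif3b, and in the fit scaled over the most distal segments Eif3b was at 0.43, still higher. Eif3k rose by 0.41 ± 0.12, a call lost without ASO library 5 or CTRL library 4 (0.37 and 0.39) and with total counts (0.23). Of its 2730 counts, 2725 lie on a segment in an intron of the canonical transcript, 3272 bp upstream of the distal end. That segment is annotated to a transcript subject to nonsense-mediated decay, so the value does not describe the canonical 3′UTR. The subunits that did not pass lay between -0.23 for Eif3c and 0.44 for Eif3i, and the largest subunit, Eif3a, was at 163 ± 21.1 CPM in CTRL and 162 ± 24.1 CPM in ASO (SD, n = 5).

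**Figure D3:**
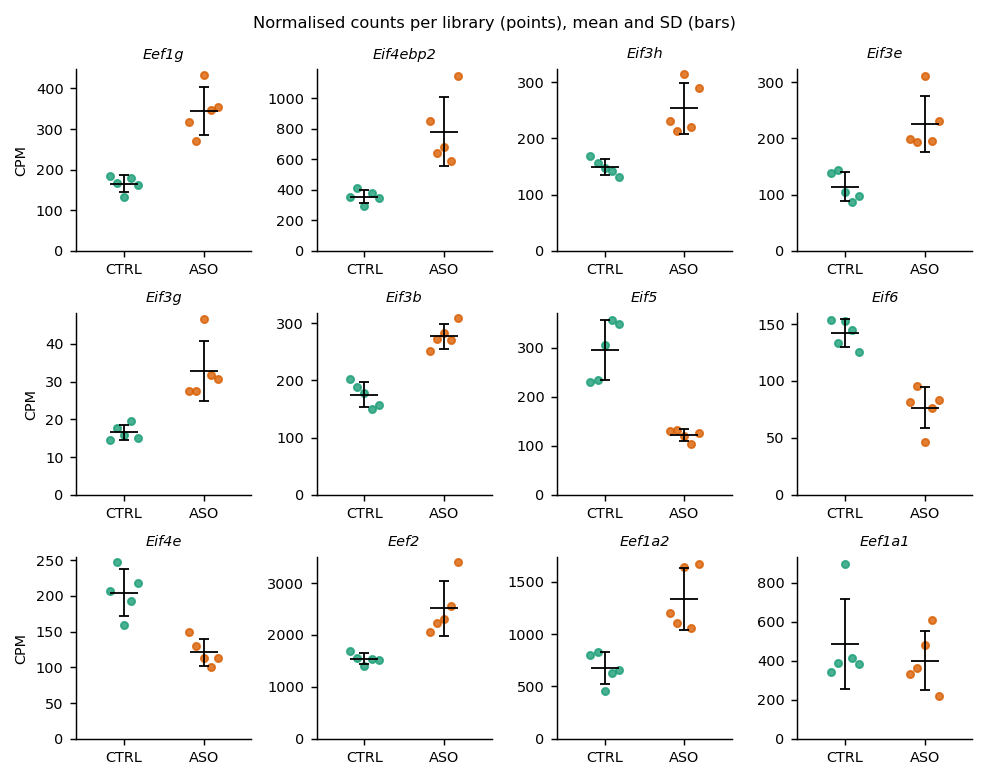
Normalised counts (CPM, y axis) of 12 members in each of the 10 libraries, with mean and SD; each panel starts at 0. The ASO points lie above all CTRL points in 8 panels and below them for Eif5, Eif6 and Eif4e, and the groups overlap for Eef1a1.

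Factors of start selection moved apart. Eif1, which keeps the scanning ribosome open until the start codon is met, was at 2816 ± 187 CPM in ASO and 2087 ± 232 CPM in CTRL (SD, n = 5), and its paralog Eif1b at 190.3 ± 36.7 and 125 ± 7.62 CPM. The log2 fold changes were 0.43 ± 0.13 and 0.61 ± 0.14. The call of Eif1 was lost in 5 of 10 fits that left out a library (ASO 2 or 5, CTRL 3, 4 or 5), with adjusted p from 0.0505 to 0.0666 (edgeR, Benjamini-Hochberg), while the groups did not overlap. It was also lost with no filter (0.45) and with total counts (0.25). Eif1b, which has 1 segment, was at 0.35 and not called in the fit scaled over the most distal segments. Eif5, which triggers GTP hydrolysis by eIF2 at the start codon, had 130.4, 132, 119, 103 and 126 CPM in ASO and 229, 233, 306, 357 and 347 CPM in CTRL. All ASO libraries were below all CTRL libraries, and Eif5 had the smallest adjusted p of all members (-1.27 ± 0.16; edgeR, Benjamini-Hochberg adjusted p = 0.000264). Eif1ax and Eif1a, which encode eIF1A, were at 0.36 ± 0.28 and -0.36 ± 0.31.

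eIF2 carries the initiator tRNA, and eIF2B recharges it with GTP. Eif2s1, the subunit whose phosphorylation lowers initiation, had 97 counts over the 10 libraries and was not tested by edgeR. DESeq2 tested it and called it lower (-1.20 ± 0.45, DESeq2 with Benjamini-Hochberg adjusted p = 0.0356). Its counts were low, at 5 to 8 a library in ASO and 8 to 18 in CTRL. Eif2s2 was at -0.08 ± 0.17. Eif2s3x rose by 0.84 ± 0.25, a call lost without ASO library 3 or 5 or CTRL library 3, 4 or 5 (0.73 to 0.83) and with total counts (0.67). It has 1 counted segment and was not called in the fit scaled over the most distal segments (0.60). Its Y-linked copy Eif2s3y was at 0.12 ± 0.22. Eif2d, which can deliver initiator tRNA without GTP, rose by 0.75 ± 0.18, and Eif2a was at -0.21 ± 0.16. Within eIF2B, Eif2b3 was higher (0.66 ± 0.22) and Eif2b1 (-0.53 ± 0.14) and Eif2b4 (-0.54 ± 0.17) were lower, while Eif2b2 and Eif2b5 did not pass. The call of Eif2b4 was lost without ASO library 2, 3 or 5 or CTRL library 1 or 4 (-0.53 to -0.41), with no filter on low counts or at equal depth, and that of Eif2b3 was lost without ASO library 2, 3 or 5 or CTRL library 1, 4 or 5 (0.54 to 0.67), with no filter (0.68) and with total counts (0.47). In the fit scaled over the most distal segments Eif2b1 was at 0.34 and not called, whereas in the fit over all segments its distal segment was higher (0.64 ± 0.19). None of the eIF2alpha kinases passed: Eif2ak1 was at 0.36 ± 0.18, Eif2ak2 at -0.02 ± 0.31 and Eif2ak3 at -0.55 ± 0.29, and Eif2ak4, with 21 counts, was not tested. The sign of Eif2ak2 turned under other scalings, with 0.07 under upper quartile scaling.

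At the cap-binding step, 1 repressor rose and the cap-binding protein Eif4e fell. Eif4ebp2, a repressor that holds eIF4E away from eIF4G, had 849, 644, 681, 588 and 1147 CPM in ASO and 349.9, 413, 294, 378 and 344 CPM in CTRL. It had the highest fold change of all members tested, at 1.14 ± 0.19 on the log2 scale (edgeR, Benjamini-Hochberg adjusted p = 0.00122), and the groups did not overlap. Eif4ebp1 was scarce, at 4.62 ± 0.834 CPM in ASO and 5.95 ± 2.88 CPM in CTRL (SD, n = 5), and did not pass. Eif4e had 149, 129.5, 113, 101 and 113 CPM in ASO and 207, 247, 159, 192 and 218 CPM in CTRL, without overlap (-0.76 ± 0.15; edgeR, Benjamini-Hochberg adjusted p = 0.00346). The fall was not called in the fit scaled over the most distal segments (-0.91 ± 0.39). Eif4e2, a cap-binding homolog known as a repressor, rose by 0.43 ± 0.13, a call lost without CTRL library 1, 2 or 4 (0.39 to 0.42), with no filter, at equal depth and with total counts (0.24). The scaffolds Eif4g1 and Eif4g2 were at -0.20 ± 0.21 and -0.18 ± 0.12, and Eif4g3, with 25 counts, was not tested.

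The helicase that unwinds the leader also moved unevenly. Its cofactor Eif4b rose from 239.9 ± 37.6 to 369.7 ± 80.8 CPM (SD, n = 5) and Eif4a3, the homolog found in the exon junction complex, rose by 0.48 ± 0.13. Each has 1 counted segment, and neither was called in the fit scaled over the most distal segments, at 0.38 for Eif4b and 0.23 for Eif4a3. Eif4a3 was not called with total counts either (0.30). Eif4a2 fell from 433 ± 59.6 to 291 ± 38.8 CPM, by 0.57 ± 0.15 on the log2 scale, whereas Eif4a1 was at -0.38 ± 0.16 (edgeR, Benjamini-Hochberg adjusted p = 0.0852). Eif6, which keeps the ribosomal subunits apart before joining, had 81.6, 96.0, 46.5, 76.0 and 83.0 CPM in ASO and 153, 133, 153, 145 and 125 CPM in CTRL. All ASO libraries were below all CTRL libraries (-0.89 ± 0.17; edgeR, Benjamini-Hochberg adjusted p = 0.00294). In the fit scaled over the most distal segments Eif6 was at -0.41 and not called. Eif5a, the factor that carries hypusine, has 6 bases that no other segment shares and 48 counts, and was not tested.

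All 6 lower members had several counted segments, whereas 10 of the 18 higher members (55.6%) had 1. Over all genes tested, 80.7% of the lower genes had several and 68.7% of the higher genes had 1. The table counts, for each transcript, up to 500 bp at the end of its 3′UTR, so a gene with transcripts of different ends has segments at different places. The 69 member segments with enough counts were therefore tested on their own in a fit over 10658 segments. In all, 23 were higher and 12 were lower, against 15.9% higher and 24.7% lower of all segments tested. The 12 lower segments belonged to 9 genes, and 7 of them lay in introns of the canonical transcript, 1 in its coding part and 4 in its 3′UTR. Of all segments tested at these places, 51.0% of the intronic, 42.6% of the coding and 17.3% of the 3′UTR segments were lower. Of these 12, 7 are annotated as the ends of transcripts subject to nonsense-mediated decay. Other member segments annotated so were not lower, and a segment of Eif3k (0.46 ± 0.13) and another of Eef1b2 (0.92 ± 0.20) were higher. The share over all segments is not given here.

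The direction of the calls differed with the place of the segment. Of the 38 member segments at the most distal 3′ end of their gene, 17 were higher and none was lower, against 25.1% higher and 4.38% lower of all 5066 such segments. Of the 22 member segments 1000 bp or more upstream of that end, 4 were higher and 10 were lower, against 5.43% and 53.7% of all such segments. Of the 9 in between, 2 were higher and 2 were lower, against 12% and 21.6%. The median log2 fold change of member segments was 0.43 at the distal end and -0.31 at 1000 bp or more upstream, and over all segments it was 0.30 and -0.86. The canonical polyadenylation hexamer AATAAA stood in the last 40 bases of 24 of the 38 distal member segments and of 3 of the 22 far upstream ones, against 66.6% and 20.1% of all such segments.

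**Figure D4:**
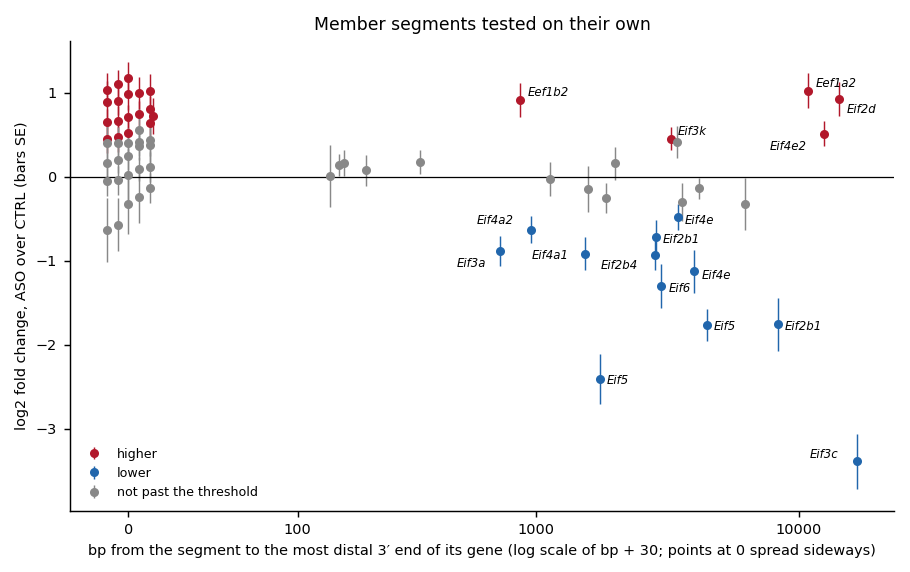
Log2 fold change of ASO over CTRL (y axis, bars SE) for each of the 69 member segments against its distance from the most distal 3′ end of its gene (x axis, log scale). The 12 blue segments lie between 722 and 16549 bp upstream, and no segment at 0 bp is blue.

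Eif3c showed the largest difference between its segments. Places are given on GRCm39, the build that the labels name, and on the GENCODE M39 annotation, in which 63.9% of the matched segments end where their transcript ends. Its distal segment (GRCm39 chr7:126145627-126146126, minus strand, 3′UTR) had 273, 281, 495, 328 and 318 counts in ASO libraries 1 to 5 and 183, 195, 130, 122 and 136 counts in CTRL libraries 1 to 5. Its upstream segment (chr7:126162176-126162675, in an intron of the canonical transcript) had 41, 29, 17, 12 and 15 counts in ASO and 183, 176, 201, 221 and 271 counts in CTRL. The groups did not overlap at either segment. The distal segment rose by 0.98 ± 0.18 and the upstream segment fell by 3.39 ± 0.33 on the log2 scale, while the sum over the gene, at -0.23 ± 0.16, was not called.

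Eif5 fell at its upstream segments. The intronic segment at chr12:111508209-111508708 (plus strand) had 118, 142, 140, 130 and 120 counts in ASO and 311, 305, 413, 433 and 455 counts in CTRL, and fell by 1.76 ± 0.19. The 3′UTR segment at chr12:111512523-111513022, 164 bp from the distal end, had 133, 135, 129, 102 and 133 counts in ASO and 115, 119, 115, 83 and 75 counts in CTRL, with overlap, and was at 0.16 ± 0.15. A segment between them (chr12:111510934-111511433) fell by 2.41 ± 0.29, although most of its bases are shared with other segments.

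Other lower members behaved alike in part. The distal segment of Eif2b1 was higher (0.64 ± 0.19) while its intronic segments, 2868 and 8306 bp upstream, were lower (-0.72 ± 0.21 and -1.76 ± 0.32). The distal segment of Eif6 was at -0.13 ± 0.18 and the one in its coding part, 3005 bp upstream, at -1.30 ± 0.26. For Eif4a2 the values were 0.08 ± 0.18 and -0.63 ± 0.16, and for Eif2b4 they were 0.16 ± 0.20 and -0.93 ± 0.19, but the more distal tested segments of these genes have only 16 and 29 unique bases. Eif4e differed: its distal segment, with 111 counts, was at -0.63 ± 0.39 and its other segments at -0.48 ± 0.16 and -1.13 ± 0.26, both lower.

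The segments of a gene were also compared directly, in a test of unequal change among segments that was added after the data were seen (edgeR's diffSpliceDGE, Benjamini-Hochberg over 2272 genes). Of the 14 members with several tested segments, 11 passed, against 67.2% of all genes tested in this way. They were Eif3c, Eif5, Eif2b1, Eif3a, Eif2b4, Eif6, Eif4a1, Eif4a2, Eef1b2, Eif1 and Eif4g1. Eef2k (edgeR, Benjamini-Hochberg adjusted p = 0.0523), Eif4e (adjusted p = 0.18) and Eif2a (adjusted p = 0.503) did not pass.

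Expressed per library, the share of counts on segments upstream of the most distal tested one was lower in every ASO library than in every CTRL library for 10 of these 14 members, against 49.9% of all genes tested in this way. For Eif3c it was 13.1%, 9.35%, 3.32%, 3.53% and 4.5% in ASO libraries 1 to 5 and 50%, 47.4%, 60.7%, 64.4% and 66.6% in CTRL libraries 1 to 5. For Eif5 it ranged from 50.2% to 58.5% in ASO and from 76.2% to 87.9% in CTRL, and for Eif3a from 12.9% to 23.7% and from 32.1% to 41.6%. The groups overlapped for Eef2k, Eif2a, Eif4a2 and Eif4e.

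**Figure D5:**
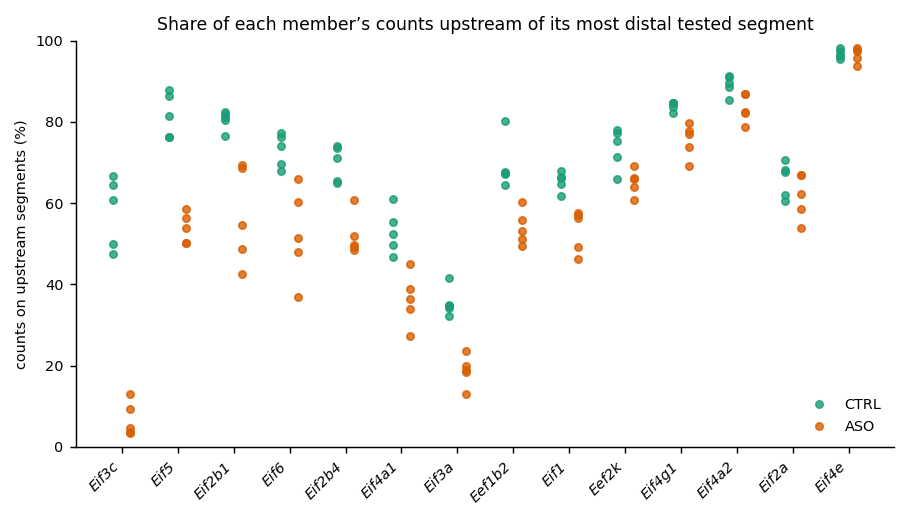
Percent of the counts of each member that lay upstream of its most distal tested segment (y axis, 0 to 100), 1 point per library, for 14 members ordered by the difference between group medians. Eif3c has the largest gap, from 47.4% or more in CTRL to 13.1% or less in ASO.

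The same shift ran through the table. Over 1254 genes that are no members, the median log2 ratio of distal to far upstream counts in a library lay between -0.58 and 0.44 in CTRL and between 1.20 and 1.77 in ASO, without overlap. Its part in the members' changes was not tested. The study limited counting to 3′ ends to deal with uneven sequencing coverage, and gives a minimum RNA quality but no value per library. A difference in RNA integrity or coverage between the groups cannot be told apart from a change of transcript ends, and was not tested. In a fit on the most distal segment of each gene alone, rescaled over those segments, 9 of 38 members were higher (23.7%) and none was lower, against 5.82% and 9.16% of all genes in that fit. These 9 were Eef1g, Eif4ebp2, Eif3c, Eif1, Eif3e, Eif3g, Eef2k, Eif3h and Eif3b, of which all but Eif3c were also higher as gene sums. Where the only counted segment of a member is its most distal, this fit holds the same counts, and only the scaling and the other genes differ. Eef2 was at 0.45 ± 0.15 in that fit (edgeR, Benjamini-Hochberg adjusted p = 0.0616), and Eef1a2 could not be tested there, because 21675 of its 21692 counts lie on a segment 10865 bp from the most distal end.

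miR-22 pairs with its targets through bases 2 to 8, the seed, which are shown in capitals in the mature sequence from RefSeq (GRCm38.p6 chr11:75463772-75463793, plus strand).
miR-22-3p: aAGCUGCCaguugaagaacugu

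The complement of the seed, GGCAGCT, was sought on the sense strand of 3′UTRs, taking for each gene the longest one annotated. It stood in 8 of the 87 members (9.20%), against 16.7% of 20930 genes of the table. Of the 6 tested members with a match, 3 were higher (Eef1a2, Eef2k and Eif4ebp2) and none was lower, with a median log2 fold change of 0.46; of the 46 without, 15 were higher and 6 were lower, with a median of 0.24. Over all genes tested, 12.6% were higher and 18.5% lower with a match and 11.4% and 17.1% without, and the medians were -0.01 for 1690 genes with a match and -0.04 for 6091 without. The sites of the called members in these annotated 3′UTRs are shown, with the match in capitals.
Eef1a2, chr2:180782556-180782562: gggggcttcgttGGCAGCTgtggcagaaga
Eef1a2, chr2:180780795-180780801: gccaggggctagGGCAGCTctttgagaact
Eef1a2, chr2:180779432-180779438: ccaccactgcccGGCAGCTctgaattctcg
Eef2k, chr7:120505107-120505113: cagcacccacatGGCAGCTcacacctgtct
Eef2k, chr7:120506567-120506573: agcacccacattGGCAGCTcataactgtaa
Eif4ebp2, chr10:61265454-61265460: ctccatgcccacGGCAGCTatttattaatg

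Coordinates are on GRCm39, minus strand for Eef1a2 and Eif4ebp2 and plus strand for Eef2k. The 3 matches of Eef1a2 lie at positions 7210, 8971 and 10334 of an annotated 3′UTR of 11191 bases. All lie beyond the 180-bp segment that holds nearly all its counts, so the transcripts counted there need not hold these matches. The second match of Eef2k lies inside its counted distal segment, which rose by 1.00 ± 0.19, while the segment 3449 bp upstream was at 0.41 ± 0.19. The match of Eif4ebp2 lies upstream of its counted segment. None of the 6 lower members had a match, and a match in these letters is a description and not a site of binding.

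Genes that work with the members were read from 6 lists, whose counts stand beside the 11.7% higher and 17.5% lower of all genes tested. Of the integrated stress response, 2 of 9 tested genes were higher and 1 was lower, with a median log2 fold change of 0.26: Atf4, the transcription factor translated when eIF2 is phosphorylated, rose by 1.15 ± 0.19, Ppp1r15b, which directs the dephosphorylation of eIF2alpha, rose by 0.56 ± 0.17, and Dnajc3, an inhibitor of eIF2alpha kinases, fell by 1.08 ± 0.23. Of the poly(A)-binding proteins and partners, 1 of 2 tested genes was higher, Pabpc1 (0.90 ± 0.19). Of the S6 kinases, MNKs and repressors, 1 of 6 was higher and 1 lower: Gigyf1, a partner of Eif4e2, rose by 0.73 ± 0.15 and the S6 kinase Rps6kb2 fell by 0.66 ± 0.16. Dohh, which completes hypusine on eIF5A, rose by 0.48 ± 0.16 and Dhps, the other of the 2 enzymes, was at 0.11 ± 0.19.

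Of the 17 tested termination, recycling and accessory factors, 3 were higher and 4 lower, with a median of 0.04, against 11.7% and 17.5% of all genes tested. Rack1, a scaffold on the small subunit, rose by 1.04 ± 0.21 and Abcf1, an ATPase that binds eIF2, rose by 0.70 ± 0.15. The termination factor Gspt1 fell by 0.96 ± 0.16 and the helicase Ddx3x fell by 0.70 ± 0.17. Of the 9 tested mitochondrial translation factors, none was higher and 2 were lower, Mrrf (-1.62 ± 0.28) and Gfm2 (-1.23 ± 0.26), which act in ribosome recycling, and the median was 0.06. Among the lower genes named from the lists, Rps6kb2, Gspt1, Mrrf and Gfm2 have several counted segments, and Dnajc3 and Ddx3x have 1.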

How the data were processed

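Stranded poly(A) libraries were used. The authors used fastp for trimming, STAR for alignment to GRCm39 and featureCounts for read pairs in the last 500 bp of 3′UTRs, and deposited the counts of each segment without normalization; the 4 other per-sample columns were not used. No strand option is named. Of 52423 segments, 52361 were matched to GENCODE M39 genes on GRCm39, and counts were summed per gene. The study names the Gencode M25 annotation beside GRCm39. Of the matched segments, 63.9% end at the M39 end of their transcript, and the places of the others rest on M39. Genes, and separately segments, went through edgeR 4.0.16 under R 4.3.3 (TMM, filter by group, quasi-likelihood, Benjamini-Hochberg, adjusted p under 0.05). DESeq2 1.42.0, limma-voom 3.58.1, other scalings and filters, equal depth, the most distal segment, a replicate block and leaving out each library were alternatives. In simulated data for the comparison of ASO with CTRL, 184 of 200 changed genes were recovered, with 7 false calls among 7913 genes. The simulation used the same dispersion for every gene and no shift along transcripts, so its false calls do not measure those in the data. Python 3.11.15 and scipy 1.17.1 were used for exact permutation tests and sequence searches. CPM are TMM-scaled; errors are SDs over 5 libraries, or SEs of log2 values. Named members are all those called with a mean of at least 10 counts a library, a set of core factors whether called or not, and up to 4 called genes of each list; others were named after their values were seen. The members and lists were chosen with earlier results of these data known. Counts limit the precision to counting error at best.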

Additional observations from a re-analysis of the deposited data

Results flagged for a closer look

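In groups of 5 libraries, a library was taken to stand apart where its gap to the nearest value exceeded 0.71 of the group's range, which chance gives in about 1 of 20 groups; 5 of 92 groups met this. Eef1a1 in CTRL library 3 was at 898 CPM, against 343 to 417 CPM in the other CTRL libraries, and the log2 ratio of Eef1a2 to Eef1a1 was -0.97 in the same library. Eif3g in ASO library 3 was at 46.5 CPM. The share of Eef1b2 counts on upstream segments was 80.3% in CTRL library 5, and that of Eif2b4 was 60.8% in ASO library 2.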

How the results depend on the processing

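Members higher numbered 11 with total counts, 11 with the replicate block and 9 of 38 on the most distal segment, against 18; members lower were 0 on the most distal segment, where 507 of all genes were lower and 322 higher, and 528 of all genes were higher with total counts. Leaving out 1 library gave 13 to 20 members higher and 5 to 8 lower, 691 to 1021 genes higher and 1126 to 1370 lower, 21 to 26 member segments higher and 11 to 12 lower, and 11 to 12 members with unequal segments. The log2 difference of the Eef1a ratio was 0.87 to 1.501, with an exact permutation p of up to 0.0714, and as differences within replicate numbers (replicate block, 1.25) the exact p was 0.0625, the smallest that 5 pairs allow. Same-numbered libraries did not deviate together (correlations of -0.43 to 0.16), so the numbers do not pair the mice. The ratio on the most distal segment could not be computed for Eef1a2. Signs turned for Eif2b1 (0.34) and Eif4g1 (0.13) on the most distal segment, for Eif4g1 (-0.268 to 0.00567) and Eef1a1 (-0.476 to 0.06001) without 1 library, the turns being without ASO library 3 and CTRL library 3, and for Eif2ak2 at 0.00646 (RLE size factors), 0.0688 (upper quartile), 0.00624 (no filter), 0.0199 (DESeq2), 0.0166 (limma-voom) and -0.177 to 0.214 without 1 library; the cause was not tested. Of the 31 named members, 13 kept direction and side of the threshold under every alternative run. Library depth and short unique segments limit the members that could be tested.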
